A study of Mus musculus with 28 samples.

Results

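The nuclear genes for the subunits of the respiratory chain were followed across 4 brain regions and 3 *Hdc* genotypes. They were chosen by name: protein-coding genes outside the mitochondrial chromosome whose symbols begin as those of NADH dehydrogenase (*Nduf*), succinate dehydrogenase (*Sdh*), the cytochrome bc1 complex (*Uqcr*, *Cyc1*), cytochrome c oxidase (*Cox4* to *Cox8*) or ATP synthase (*Atp5*). Of 29878 genes listed, 85 fitted these names, and 81 of them were among the 14979 genes with more than 1 CPM (a gene's counts scaled to the total on genes in its library) in at least 2 of 28 libraries. By complex, 37 belonged to complex I, 4 to complex II, 9 to complex III, 15 to complex IV and 16 to complex V. They lay on 19 chromosomes.

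Complexes I, III and IV pass electrons from NADH to oxygen and pump protons across the inner mitochondrial membrane, complex II feeds in electrons from succinate, and complex V uses the proton gradient to make ATP. Each complex other than complex II joins subunits made from nuclear genes with a few made inside the mitochondrion. Neurons draw most of their ATP from this chain, and several subunits of complex IV have a second gene that is used mainly in muscle, lung or testis.

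The study asked how loss of histidine decarboxylase (*Hdc*), the enzyme that makes histamine, changes the brain transcriptome of mice kept as a model of tic disorders. RNA came from WT, *Hdc* heterozygous and *Hdc*-KO mice (a constitutive knockout) aged 2 to 3 months, all on a C57Bl/6 background. For WT, heterozygous and KO in turn there were 3, 3 and 2 libraries of the hypothalamus and as many of the ventral striatum, 2, 3 and 2 of the dorsal striatum, and 1, 2 and 2 of the motor cortex. Libraries held 3536802 to 5150280 counts on genes. A sample carries a number from 1 to 8 that the labels do not explain, so p-values measure the spread between samples, which are not known to be separate animals. In whole tissue, fewer cells of a type and less RNA per cell cannot be told apart. CPM values are scaled by TMM (edgeR's trimmed mean of M-values) unless stated otherwise. Changes are log2 fold changes with their standard error (SE), a gene was called at an edgeR p-value under 0.05 after adjustment over all genes tested, and intervals of ratios are 95% intervals that cover counting error only.

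The region labels were checked against marker genes. All 8 markers of striatal spiny neurons (*Penk* the most abundant) were lower in both other regions than in either part of the striatum, and their summed level was 4574 to 6560 CPM in the dorsal striatum, 1285 to 2893 in the ventral striatum, 88.1 to 106 in the motor cortex and 127 to 161 in the hypothalamus. All 8 hypothalamic markers (*Pmch* the most abundant) were higher in the hypothalamus, at 160 to 266 CPM against at most 12.6 in any other library. All 8 markers of cortical excitatory neurons (*Nrgn* the most abundant) were higher in the motor cortex, at 3061 to 3363 CPM. The KO hypothalamus library 8 held 773 CPM of these cortical genes against 250 to 364 in the other hypothalamus libraries, and the dorsal striatum held 653 to 1272. None of these markers was at 0 in all libraries.

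*Hdc* itself had 79, 111 and 94 counts in the WT hypothalamus, 79, 117 and 78 in the heterozygous hypothalamus, and 54 and 66 in the KO hypothalamus. Outside the hypothalamus the order was the reverse. WT libraries had 3 and 0 counts in the dorsal striatum, 1, 6 and 0 in the ventral striatum and 0 in the motor cortex. KO libraries had 40 and 31, 49 and 51, and 45 and 29 in the same regions, and heterozygous libraries had 17 to 33 counts. Pooled counts gave a ratio of KO to WT of 22.5 (7.39 to 112) in the dorsal striatum and 19.3 (9.05 to 49.3) in the ventral striatum, and in the motor cortex, where the WT library had none, a floor of 3 counts gave a difference of at least 12.6-fold. In the hypothalamus the ratio was 0.755 (0.605 to 0.937), and the fitted change of -0.40 (SE 0.21, adjusted p = 0.840) was not called. The counts do not say which exons the reads came from, so they do not check the deleted part of the gene.

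Levels of the subunit genes were compared per kilobase of exon, from unscaled CPM averaged over the 28 libraries. In complex IV the 3 highest were *Cox6a1* (338 ± 51.6 CPM per kb, SD, n = 28), *Cox6b1* (275 ± 40.6) and *Cox8a* (186 ± 34.7), small subunits around the catalytic core. In complex V *Atp5b*, the catalytic beta subunit, was highest at 132 ± 17.0, followed by *Atp5g3*, which encodes the proton-carrying c ring, at 118 ± 21.5. *Ndufb10*, in the membrane arm of complex I, reached 123 ± 16.5, *Uqcr10* of complex III reached 90.9 ± 12.6, and *Sdha*, the flavoprotein that oxidizes succinate and is shared with the citrate cycle, reached 53.4 ± 11.04. The lowest genes were *Ndufa4l2* in complex I (1.118 ± 0.497), *Sdhc*, a membrane anchor of complex II (12.04 ± 1.55), *Uqcrc1*, a core protein of complex III (11.4 ± 2.57), *Cox6b2*, the testis form of *Cox6b1* (0.949 ± 0.680), and *Atp5l* (0.593 ± 0.157). Medians by complex were 21.6 in complex I, 25.9 in complex II, 29.5 in complex III, 34.6 in complex IV and 32.4 in complex V. With the longest mRNA as the length, these medians were 36.7, 42.9, 46.5, 72.0 and 72.1 for complexes I to V. Per length of the longest mRNA, the highest gene placed in complex I by its symbol was *Ndufa4* (252), which is known as a subunit of complex IV, and that of complex V *Atp5g3* (357), while the lowest of complex III was *Uqcrfs1* (25.3), that of complex IV *Cox4i2* (1.62) and that of complex V *Atp5s* (3.27). The level of a gene relative to its neighbours in this order thus depended on which length was used.

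Among the genes that passed, 4 isoforms known from other tissues or conditions were the only ones not above 1 CPM in every library. *Cox6b2* passed 1 unscaled CPM in 14 of 28 libraries, *Cox4i2*, the lung form of *Cox4i1*, in 17, *Ndufa4l2* in 18 and *Cox7a1*, the muscle form of *Cox7a2*, in 23. The 4 listed genes that did not pass had no library above 1 CPM: *Cox7b2* (31 counts in all libraries together), *Cox8b* (19), *Atp5g2* (17) and *Cox8c* (2). The forms *Cox4i1*, *Cox6a1*, *Cox6b1*, *Cox7a2* and *Cox8a*, found in most tissues, each passed in all 28.

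Many of these genes have near-identical copies elsewhere in the genome, and the counts hold uniquely placed reads of 50 bases. Of the 81 genes, 40 shared at least some 50-base stretch of their coding sequence with another annotated transcript, and in 11 of them at least 50% of the stretches were shared. *Ndufb4* and *Atp5l* shared 100% of theirs, *Atp5g1* 99.7% and *Cox7c* 81.9%. Over all exons these 4 genes shared 18.3%, 9.99%, 11.1% and 22.1% of the stretches, so most of their annotated exon sequence could still be counted. For *Atp5l* these exons cover 6443 bases against 544 of its longest mRNA. No stretch of its coding sequence was unique, a limit on its low level above. In 1 coding sequence of *Cox7c*, 0 of 140 stretches were unique. The coding sequence of *Cox6c*, a small subunit of complex IV, shows such a mixture. It (chr15:35935303-35937271, minus strand, GRCm38, GENCODE M21) has 83 stretches of 179 found nowhere else, and the 181 bases in them are in capitals below.
Cox6c: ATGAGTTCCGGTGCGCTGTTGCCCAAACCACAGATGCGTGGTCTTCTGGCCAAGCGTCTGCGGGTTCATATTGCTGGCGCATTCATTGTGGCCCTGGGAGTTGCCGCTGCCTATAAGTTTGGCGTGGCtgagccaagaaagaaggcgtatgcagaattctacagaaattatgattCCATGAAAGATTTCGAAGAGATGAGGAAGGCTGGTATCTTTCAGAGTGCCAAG
*Cox6c* averaged 123 CPM and *Cox7c* 4.49 CPM without scaling. Genes compared below are affected too: *Uqcrb* shared 72.9% of its coding stretches, *Ndufs5* 72.5%, *Ndufa12* 69.8%, *Cox7a2l* 50.9% and *Ndufs3* 47.8%. Over all exons they shared 25.5%, 21.7%, 17.7%, 13.8% and 17.9%, a limit on their levels. On the map, 28 genes overlapped another gene, 3 of them over more than 20% of their exons (*Atp5o* 47.9%, *Ndufb6* 39.0% and *Ndufa13* 29.98%), and whether the counting separated the strands of such pairs is not stated.

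Between regions, the sums of the subunit genes stayed within a narrow band. All 81 genes together gave a lowest, median and highest level of 5442, 5821 and 6155 CPM in the dorsal striatum, 5227, 5584 and 5956 in the ventral striatum, 5602, 5675 and 5909 in the motor cortex, and 5155, 5615 and 6289 in the hypothalamus. On this scale the 4 regions overlapped throughout, but as a share of counts on genes every hypothalamic library (0.581% to 0.698%) lay above every dorsal one (0.410% to 0.567%). Complex II had its highest median in the hypothalamus, 388 CPM (341 to 406) against 336 in the dorsal striatum (323 to 355), 349 in the ventral striatum (321 to 397) and 331 in the motor cortex (324 to 344), and these ranges overlapped. Complex IV had a median of 1257 CPM in the motor cortex (1230 to 1359), 1218 in the dorsal striatum (1073 to 1334), 1121 in the ventral striatum (988 to 1166) and 1050 in the hypothalamus (897 to 1231), and only the motor cortex and the ventral striatum did not overlap. The ranges of complexes I (1831 to 2204 CPM), III (414 to 498) and V (1595 to 1963) overlapped as well.

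**Figure D1:**
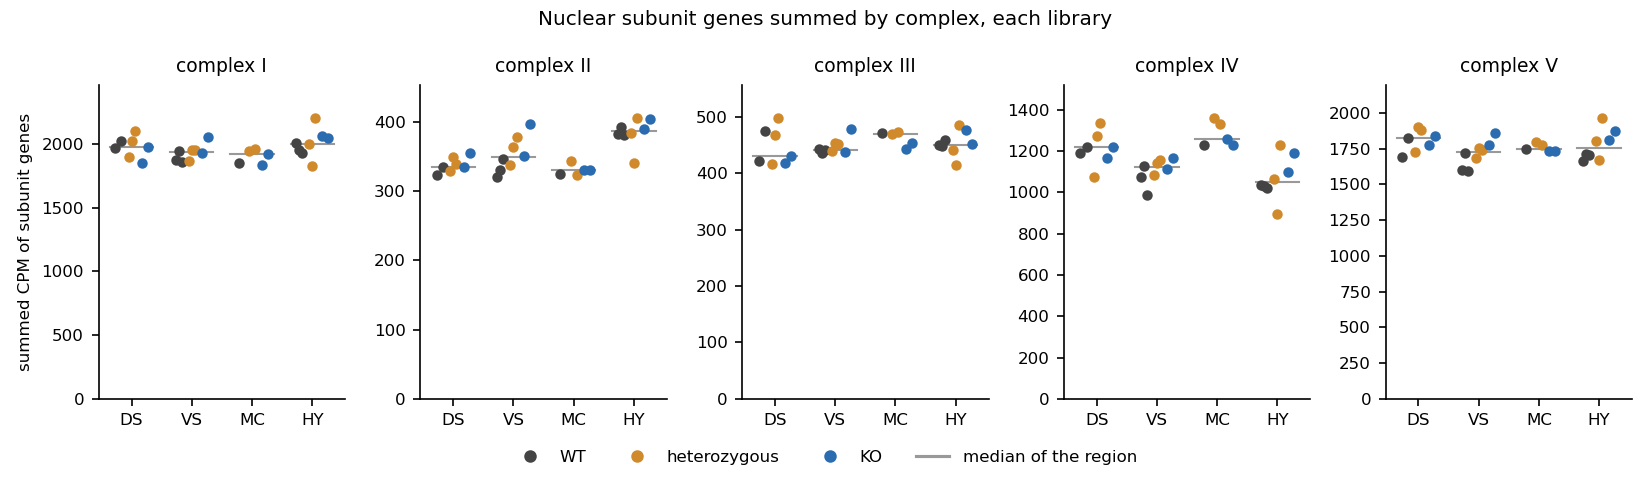
Summed TMM-scaled CPM of the subunit genes of each complex (vertical axis) by region (DS dorsal striatum, VS ventral striatum, MC motor cortex, HY hypothalamus), 1 point per library colored by genotype, with the median of the region as a line. The highest median of complex II is in the hypothalamus and that of complex IV in the motor cortex, and in every complex the ranges of some regions overlap.

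On the TMM scale a smaller share of the subunit genes than of all genes was called in each of the 6 comparisons of regions, and the median size of their differences was smaller. The first of these depended on the scaling: by size alone, 84.0%, 56.8% and 58.0% of the subunit genes were called for the hypothalamus against the dorsal striatum, the ventral striatum and the motor cortex, against 67.2%, 52.2% and 54.8% of all genes. In the other 3 comparisons the subunit share stayed the lower one (27.2% against 33.8% for the dorsal against the ventral striatum, and 29.6% against 42.4% and 19.8% against 42.2% for the motor cortex against the dorsal and the ventral striatum). The median size of the log2 fold change was 0.11 to 0.18 for the subunit genes and 0.23 to 0.41 for all genes, or 0.12 to 0.42 and 0.27 to 0.55 by size alone, where it was again smaller in each comparison. Within 0.5 of no change lay 74 to 78 of the 81 genes in each comparison. On the TMM scale at least 1 comparison called 45 genes, and 36 were called in none, among them *Atp5b*, *Atp5a1*, *Cox4i1*, *Cox5a*, *Ndufs1*, *Sdhb* and *Uqcrfs1*. By size alone the hypothalamus against the dorsal striatum called 68 of the 81 by itself. Comparisons with a region in common share its libraries.

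**Figure D2:**
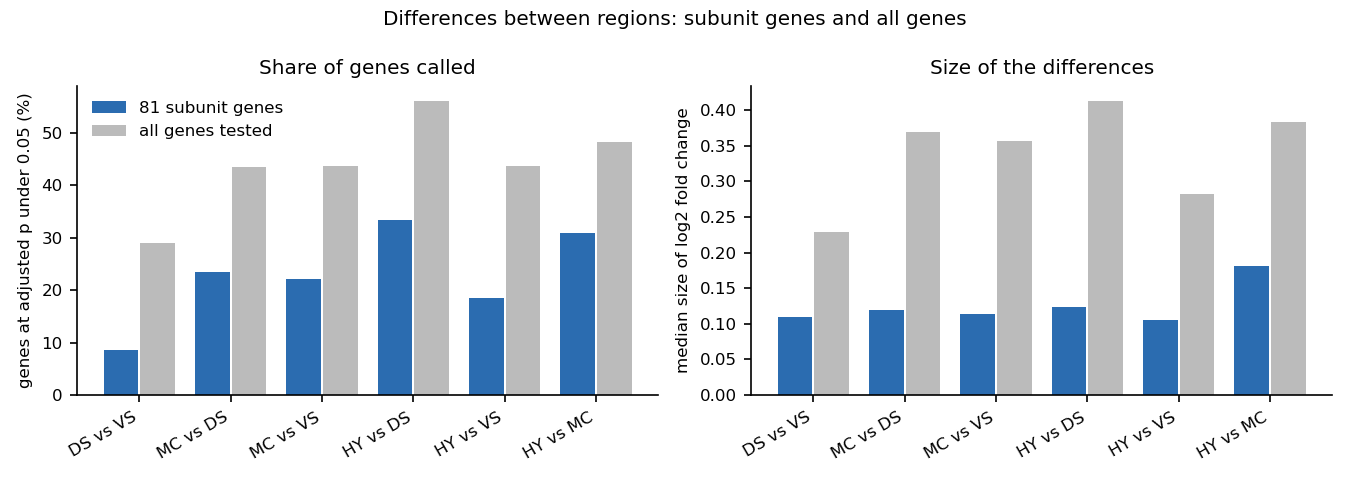
Left, the percentage of genes called at an adjusted p under 0.05 in each comparison of 2 regions, for the 81 subunit genes (blue) and for all genes tested (grey). Right, the median size of the log2 fold change of the same genes. In all 6 comparisons the blue bar is the lower one on the TMM scale shown, but by size alone the share called is the higher one for the subunit genes in the 3 comparisons with the hypothalamus.

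The counts in each direction depended on the scaling. TMM factors were 0.734 to 0.976 in the dorsal striatum, with WT library 1 lowest, and 1.06 to 1.22 in the hypothalamus. With scaling by library size alone the median of all genes moved from -0.01 to -0.17 for the dorsal against the ventral striatum, from -0.03 to 0.09 for the motor cortex against the dorsal striatum, and to 0.41, 0.24 and 0.28 (from 0.04, 0.03 and 0.05) for the hypothalamus against the dorsal striatum, the ventral striatum and the motor cortex. The medians of the subunit genes moved with them, to -0.15, 0.12, 0.42, 0.25 and 0.29, close to the medians of all genes. Size alone called 3 subunit genes higher and 19 lower for the dorsal against the ventral striatum, where TMM called 5 and 2, and 19 higher and 5 lower for the motor cortex against the dorsal striatum, where TMM called 7 and 12. For the hypothalamus it called 64 higher and 4 lower against the dorsal striatum, 45 and 1 against the ventral striatum, and 45 and 2 against the motor cortex, where TMM called 16 and 11, 12 and 3, and 16 and 9. As a share of all counts on genes, the 81 genes held 0.581% to 0.698% in the hypothalamus (median 0.654%), 0.541% to 0.586% in the motor cortex (0.550%), 0.515% to 0.634% in the ventral striatum (0.531%) and 0.410% to 0.567% in the dorsal striatum (0.531%). The differences below are relative to the TMM scale, on which the median of all genes is close to 0.

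The dorsal and the ventral striatum gave the fewest calls on the TMM scale. In the dorsal striatum *Ndufa1*, an X-linked membrane-arm subunit of complex I, and *Ndufs3*, a core subunit of its peripheral arm, were higher by 1.43 and 1.36 times, and the small complex IV subunits *Cox6a1* and *Cox6c* were also higher. Called were 5 subunit genes higher and 2 lower, 8.64% of the 81, against 29% of all genes (2185 higher and 2158 lower). The median over the 81 was 0.00.

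*Ndufa1* had a lowest, median and highest level of 34.4, 42.4 and 52.8 CPM in the 7 dorsal libraries and 25.4, 29.4 and 37.1 in the 8 ventral ones. A single dorsal library, KO 8, lay under the highest ventral libraries. The change was 0.51 (SE 0.10, adjusted p = 1.03e-06). *Ndufs3* was at 37.0, 40.9 and 44.2 CPM in the dorsal and 21.8, 30.7 and 33.1 in the ventral striatum. Every dorsal library was above every ventral one, with a change of 0.44 (SE 0.12, adjusted p = 9.61e-04). *Cox6a1* was at 233 to 302 CPM in the dorsal and 208 to 234 in the ventral striatum (0.32, SE 0.09, adjusted p = 0.00146). The ranges of *Cox6a1* touched at their ends, and those of *Cox6c* (131 to 150 and 112 to 131 CPM, change 0.22, adjusted p = 0.00330) met without crossing. *Cox4i2* was the rare gene of the set, with 62 counts in the dorsal and 32 in the ventral libraries, a ratio of the ventral to the dorsal level of 0.453 (0.286 to 0.705). Lower in the dorsal striatum were *Ndufb11*, another X-linked subunit of complex I, at 8.76 to 15.8 against 11.8 to 16.4 CPM (-0.39, adjusted p = 0.00875), and *Cox7a2l*, which helps join complexes III and IV, at 69.9 to 89.3 against 80.0 to 96.7 CPM (-0.20, adjusted p = 0.0141). Both of these overlapped between the regions.

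The number called rose from 7 to 11 without heterozygous dorsal library 4 or without KO ventral library 7, and to 12 without KO ventral library 8. *Ndufb11* was not called without KO dorsal library 7 (adjusted p = 0.0584), nor *Cox7a2l* without WT dorsal library 1 (0.0669), and scaled by size alone neither *Cox6a1* (0.16, adjusted p = 0.132) nor *Cox6c* (0.06, adjusted p = 0.581) was called.

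The motor cortex had more *Cox8a*, *Ndufv1* and *Atp5d* than the dorsal striatum and less of several complex I subunits. *Cox8a* is the usual form of the smallest complex IV subunit, *Ndufv1* the core subunit of complex I that binds NADH, and *Atp5d* the delta subunit in the central stalk of ATP synthase. Called were 7 genes higher and 12 lower, 23.5% of the 81, against 43.4% of all genes, with 4 and 10 once KO cortical library 7 was left out. Complex I gave 1 of 37 higher and 7 lower, and complex IV 2 of 15 in each direction. By size alone complex I gave 8 higher and 3 lower, so the balance turned, and complex IV 5 higher and 2 lower.

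*Cox8a* had a lowest, median and highest level of 146, 160 and 165 CPM in the 5 cortical libraries and 98.4, 119 and 130 in the dorsal striatum. No library overlapped, and the change was 0.42 (SE 0.09, adjusted p = 1.07e-05). *Ndufv1* was at 45.3, 47.6 and 48.8 CPM against 32.1, 37.9 and 42.1, also without overlap (0.37, SE 0.10, adjusted p = 7.81e-04). *Atp5d*, at 72.2, 78.8 and 88.9 CPM against 50.1, 65.1 and 70.0, was separated too (0.37, SE 0.11, adjusted p = 0.00217). *Cyc1*, the cytochrome c1 of complex III, was at 69.5 to 81.1 against 54.8 to 68.7 CPM (0.25, adjusted p = 0.0122).

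Among the genes lower in the cortex, *Ndufa1* was at 25.0, 27.8 and 33.4 CPM there, under each dorsal library (-0.65, SE 0.11, adjusted p = 1.08e-07). *Ndufb10* was at 122, 125 and 137 CPM against 145, 169 and 186 (-0.40, SE 0.08, adjusted p = 1.17e-06). It too was separated in all libraries. *Ndufs3* was at 21.9 to 36.8 CPM and *Ndufa3*, an accessory subunit, at 36.4 to 47.6 against 49.5 to 82.6 CPM, with changes of -0.49 (adjusted p = 0.00126) and -0.44 (adjusted p = 0.00421). Heterozygous dorsal library 4 gave the highest *Ndufa3*. Without KO cortical library 7, *Cyc1* was not called (adjusted p = 0.0619), and under size alone *Ndufa3* was not called (-0.31, adjusted p = 0.0685). Complex I had 2 genes higher and 6 lower without heterozygous dorsal library 6 or without KO dorsal library 8.

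Against the ventral striatum the motor cortex again had more *Cox8a* and *Atp5d*, here by 1.47 times each, and more *Cox6a1*, *Cox7a2* and *Uqcrc1*. Less abundant were *Cox7a2l*, *Ndufb10*, *Ndufa5*, a subunit of the peripheral arm of complex I, and *Uqcrb*, a small subunit of complex III. Called were 9 genes in each direction, 22.2% of the 81, against 43.7% of all genes. Complex IV contributed 5 of the higher and 3 of the lower genes.

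*Cox8a* was at 80.3, 109 and 118 CPM in the ventral striatum, well under the cortical range, with a change of 0.56 (SE 0.09, adjusted p = 6.81e-10). *Atp5d* was at 42.1, 53.3 and 64.3 CPM there (0.56, SE 0.11, adjusted p = 9.16e-07). *Cox6a1* was at 267, 305 and 324 CPM in the cortex and 208, 220 and 234 in the ventral striatum (0.43, SE 0.10, adjusted p = 5.28e-05). These 3 genes separated the regions in every library. *Cox7a2* (88.0 to 110 against 68.3 to 87.8 CPM, 0.31, adjusted p = 5.95e-04) did so narrowly, while *Uqcrc1* (48.0 to 55.3 against 32.9 to 49.1 CPM, 0.37, adjusted p = 7.15e-04) overlapped. *Cox7a2l* was at 65.8, 71.9 and 73.4 CPM in the cortex and 80.0, 88.6 and 96.7 in the ventral striatum (-0.34, SE 0.08, adjusted p = 8.75e-05). It was lower in every cortical library. *Ndufa5* (94.7 to 105 against 110 to 126 CPM) changed by -0.28 (adjusted p = 0.00396) and *Ndufb10* (122 to 137 against 137 to 162 CPM) by -0.25 (adjusted p = 0.00303). *Uqcrb* was at 13.7 to 25.0 against 22.3 to 32.0 CPM (-0.37, adjusted p = 0.00542). Its lowest value was in KO cortical library 7, and without that library it was not called (adjusted p = 0.0570). *Atp5g3* was at 215 to 238 against 207 to 306 CPM (-0.19, adjusted p = 0.0355), and it was not called when any of 7 libraries was left out: heterozygous cortical 5 (adjusted p = 0.0764) and 6 (0.0563), KO cortical 7 (0.101), heterozygous ventral 6 (0.0568), KO ventral 8 (0.110), and WT ventral 2 (0.0641) and 3 (0.0565).

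The hypothalamus and the dorsal striatum gave the most calls. On the TMM scale the median size of the changes was nevertheless larger against the motor cortex (0.18, here 0.12). By size alone it was smaller there (0.31, here 0.42). The hypothalamus had more *Sdha* and more of the membrane-arm subunits *Ndufc2*, *Ndufb8* and *Ndufb6*, and less *Ndufa1*, *Ndufs3*, *Cox6a1*, *Cox6c* and *Uqcr11*, a small subunit of complex III. Called were 16 genes higher and 11 lower, 33.3% of the 81, against 56.1% of all genes (4592 higher and 3815 lower). Complex I gave 8 higher and 4 lower of 37, and complex III 4 higher and 1 lower of 9, while complex IV gave 2 higher and 5 lower of 15. By size alone complex I gave 30 higher and 2 lower. Without heterozygous dorsal 4, KO dorsal 7, WT dorsal 1, heterozygous hypothalamus 6, KO hypothalamus 7 or any WT hypothalamus library, complex III had 2 higher calls in place of 4, and under size alone complexes III and IV both had 8 higher and 1 lower.

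*Sdha* had a lowest, median and highest level of 213, 245 and 262 CPM in the 8 hypothalamic libraries and 186, 196 and 212 in the dorsal striatum. The ranges did not overlap, and the change was 0.31 (SE 0.06, adjusted p = 2.07e-06). *Ndufb8* was at 73.2, 78.5 and 84.0 CPM against 42.2, 61.8 and 70.3 (0.37, SE 0.08, adjusted p = 1.02e-05). *Ndufc2* was at 36.8, 40.0 and 43.8 CPM against 24.5, 31.2 and 36.2 (0.39, SE 0.08, adjusted p = 5.94e-06). Both were higher in every hypothalamic library. *Ndufb6* (23.4 to 32.5 against 17.7 to 25.6 CPM, 0.46, adjusted p = 3.69e-05) overlapped.

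Of the genes that fell, *Ndufa1* was at 24.6, 27.8 and 31.8 CPM in the hypothalamus (-0.66, SE 0.10, adjusted p = 2.18e-11) and *Ndufs3* at 17.3, 26.4 and 30.6 (-0.70, SE 0.12, adjusted p = 1.28e-08). Both lay under every dorsal library. *Uqcr11* was at 27.0, 35.5 and 44.6 CPM against 45.5, 56.7 and 65.1 (-0.61, SE 0.10, adjusted p = 8.11e-10). *Cox6a1* was at 148, 184 and 245 CPM against 233, 283 and 302 (-0.53, SE 0.09, adjusted p = 6.62e-09). Here heterozygous hypothalamus library 6 reached into the dorsal range. *Cox6c* was at 101, 109 and 123 CPM against 131, 141 and 150 (-0.33, SE 0.06, adjusted p = 7.53e-07) and *Cox8a* at 78.0 to 108 against 98.4 to 130 CPM (-0.26, SE 0.08, adjusted p = 0.00178). Relative to the shift of all genes by size alone (0.41) these genes were still low, but the sign of *Cox6c* (0.04) and of *Cox8a* (0.10) turned, and *Cox6a1* (-0.16, adjusted p = 0.0795) was not called.

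The comparison of the hypothalamus with the ventral striatum shares its 8 hypothalamic libraries with the preceding one. In it *Ndufb8*, *Ndufb6*, *Uqcrc1* and *Atp5f1*, the subunit b of the stator of ATP synthase, were higher, and *Uqcr11*, *Atp5k*, a subunit of the membrane part of ATP synthase, and *Cox6a1* were lower. Called were 12 genes higher and 3 lower, 18.5% of the 81, against 43.6% of all genes (3583 higher and 2950 lower). The counts were 7 and 3 without KO hypothalamus library 7, 11 and 7 without heterozygous hypothalamus 6, 9 and 5 without WT hypothalamus 1, 8 and 5 without WT hypothalamus 3, and 16 and 5 without WT ventral 3. Complex I gave 6 higher and 0 lower by the likelihood ratio test, with 3 to 9 higher and 0 to 3 lower over the libraries left out. By size alone it gave 21 higher and 0 lower.

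*Ndufb8* was at 54.6, 62.8 and 65.2 CPM in the ventral striatum, under every hypothalamic library (0.35, SE 0.08, adjusted p = 2.44e-05). *Uqcr11* was at 39.8, 50.0 and 54.1 CPM there (-0.42, SE 0.09, adjusted p = 3.66e-05). *Atp5f1* was at 32.4 to 46.6 CPM in the hypothalamus against 29.1 to 36.7 (0.35, SE 0.09, adjusted p = 7.10e-04) and *Uqcrc1* at 42.8 to 57.0 against 32.9 to 49.1 (0.32, SE 0.08, adjusted p = 5.76e-04). The last 3 overlapped between the regions. *Ndufb6* (17.3 to 26.2 CPM in the ventral striatum) changed by 0.38 (adjusted p = 6.43e-04) and *Atp5k* (33.3 to 51.8 against 43.8 to 59.4 CPM) by -0.27 (adjusted p = 0.00912). *Cox6a1* changed by -0.21 (adjusted p = 0.0348) and was not called without heterozygous hypothalamus 4 (adjusted p = 0.0617) or 5 (0.0905), KO hypothalamus 7 (0.0705), heterozygous ventral 6 (0.0631), KO ventral 8 (0.0849) or WT ventral 2 (0.0645). Under size alone *Cox6a1* was at -0.00 (adjusted p = 0.994) and *Atp5k* at -0.06 (adjusted p = 0.630). The number called was 10 without KO hypothalamus library 7, where complex I had 4 higher and 1 lower. Complex I had 5 and 3 without heterozygous hypothalamus 6, 4 and 2 without WT hypothalamus 1, 4 and 1 without WT hypothalamus 3, 3 and 0 without KO ventral 7, and 9 and 1 without WT ventral 3.

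Between the hypothalamus and the motor cortex, the smallest p-values belonged to 2 small subunits of complex IV. *Cox8a* and *Cox6a1* were 1.60 and 1.56 times higher in the cortex, and *Uqcr11*, *Atp5d* and *Cox6c* were also higher there. In the hypothalamus *Ndufc2*, *Sdha*, *Uqcrb* and *Atp5g3* were higher. Called were 16 genes higher and 9 lower in the hypothalamus, 30.9% of the 81, against 48.2% of all genes, with 9 and 10 once KO hypothalamus library 7 was left out. Complex I gave 9 higher and 2 lower, but 5 and 3 without KO hypothalamus library 7 or KO cortical library 7. Complex IV gave 3 higher and 4 lower, or 1 and 4 without KO hypothalamus library 7. By size alone complex I gave 23 higher and 0 lower, and complex IV 4 higher and 2 lower.

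*Cox8a* was at 78.0, 98.2 and 108 CPM in the hypothalamus against 146 to 165 in the cortex (-0.68, SE 0.09, adjusted p = 1.27e-14). *Cox6a1* changed by -0.64 (SE 0.10, adjusted p = 3.64e-10) and *Uqcr11*, at 46.6, 50.6 and 57.0 CPM in the cortex, by -0.44 (SE 0.11, adjusted p = 1.46e-04). No hypothalamic library reached the cortical range of any of the 3. *Atp5d* was at 54.4, 56.8 and 70.9 CPM in the hypothalamus (-0.40, SE 0.11, adjusted p = 3.62e-04), also under every cortical library. *Sdha* was at 193, 204 and 208 CPM in the cortex (0.28, SE 0.07, adjusted p = 2.44e-04), *Ndufc2* at 24.9, 31.6 and 35.2 (0.40, SE 0.09, adjusted p = 7.15e-05), and *Atp5g3* at 244 to 308 CPM in the hypothalamus against 215 to 238 (0.29, SE 0.08, adjusted p = 5.55e-04). Each was higher in every hypothalamic library. *Uqcrb* (24.1 to 30.6 against 13.7 to 25.0 CPM, 0.44, adjusted p = 4.11e-04) overlapped. The lower calls of *Ndufa4* (-0.22, adjusted p = 0.0180) and *Cox7a2* (-0.25, adjusted p = 0.00415) and the higher call of *Cox7a2l* (0.24, adjusted p = 0.00544) were small. Without KO hypothalamus library 7 *Cox7a2l* was not called (adjusted p = 0.0701). Under size alone *Uqcr11* (-0.21, adjusted p = 0.0889), *Atp5d* (-0.16, adjusted p = 0.240) and *Cox7a2* (-0.02, adjusted p = 0.882) were not called, and the signs of *Cox6c* (0.01) and *Ndufa4* (0.01) turned.

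**Figure D3:**
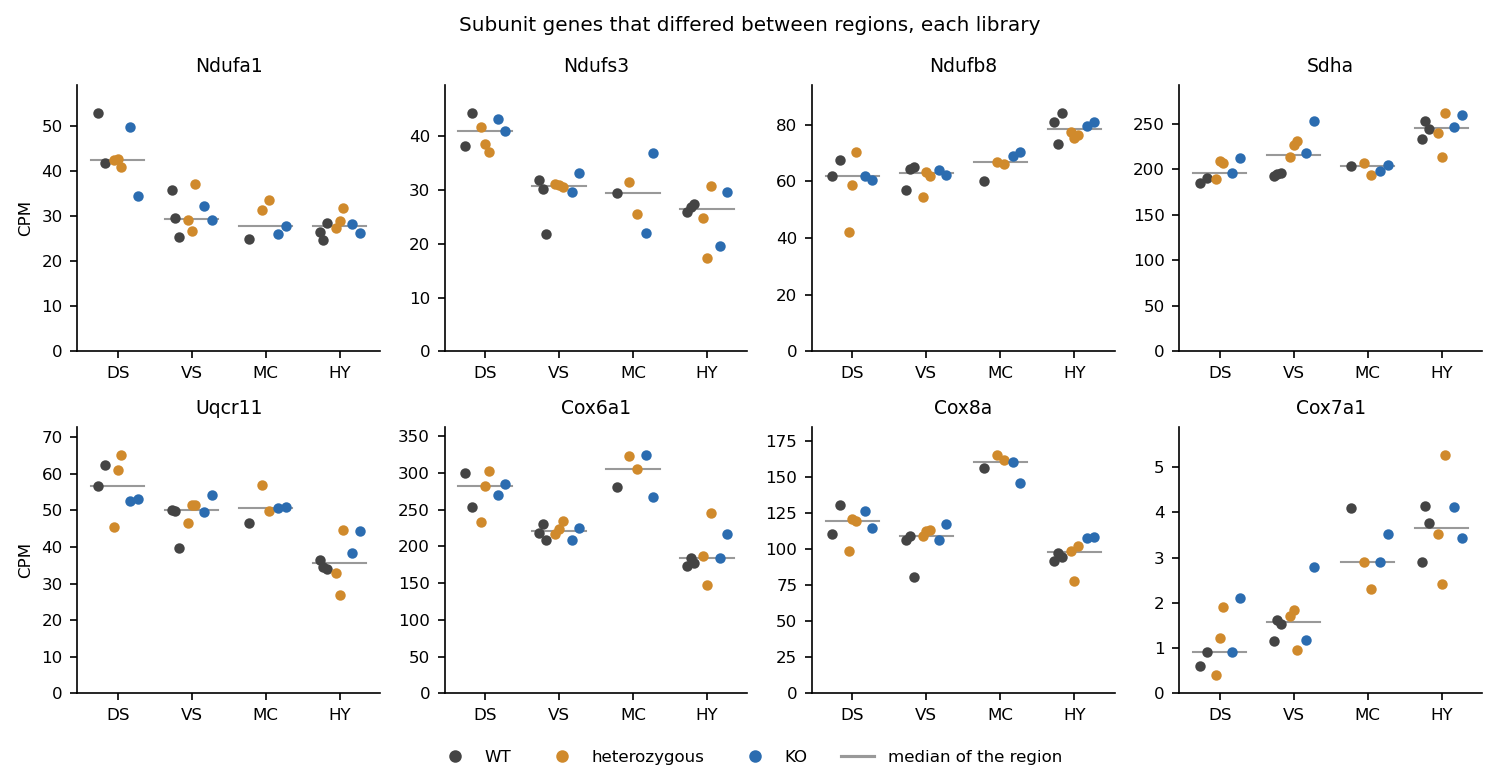
TMM-scaled CPM (vertical axis, from 0) of 8 subunit genes in each library by region (DS dorsal striatum, VS ventral striatum, MC motor cortex, HY hypothalamus), colored by genotype, with the median of the region as a line. *Ndufa1* and *Ndufs3* are highest in the dorsal striatum, *Cox8a* in the motor cortex and *Ndufb8* and *Sdha* in the hypothalamus, where *Uqcr11* is lowest.

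The isoforms that mark other tissues were rare in all regions and not evenly spread. *Cox7a1* had a lowest, median and highest level of 0.408, 0.921 and 2.10 CPM in the dorsal striatum, 0.958, 1.58 and 2.78 in the ventral striatum, 2.32, 2.91 and 4.09 in the motor cortex and 2.42, 3.64 and 5.26 in the hypothalamus. The motor cortex and the hypothalamus were above every dorsal library. Changes against the dorsal striatum were 1.56 (SE 0.35, adjusted p = 1.48e-05) in the motor cortex and 1.75 (SE 0.32, adjusted p = 3.49e-09) in the hypothalamus, and pooled counts gave ratios of 2.81 (1.81 to 4.43) and 3.29 (2.24 to 4.98). Against the ventral striatum the changes were 0.99 (adjusted p = 0.00283) and 1.18 (adjusted p = 9.31e-06). Its partner *Cox7a2* stayed between 68.3 and 110 CPM in all libraries. *Cox6a2*, the muscle form of *Cox6a1*, was at 1.52 to 4.19 CPM in the ventral striatum and higher in the motor cortex (4.89 to 6.28 CPM, 0.90, adjusted p = 0.00231) and the hypothalamus (3.35 to 8.77 CPM, 0.66, adjusted p = 0.0116). The second call was lost without KO hypothalamus library 7 (adjusted p = 0.0925) or KO ventral library 8 (0.0708).

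*Cox4i2* was highest in the dorsal striatum, where every library held 7 to 11 counts (1.84 to 2.70 CPM). The other regions held 0 to 9 counts per library, and the hypothalamus gave a ratio to the dorsal striatum of 0.453 (0.297 to 0.682) by pooled counts, with a fitted change of -1.24 (SE 0.33, adjusted p = 1.78e-04). The motor cortex had 13 pooled counts, a ratio to the dorsal striatum of 0.294 (0.148 to 0.541). Its fitted changes against the ventral striatum (adjusted p = 0.0151) and for the hypothalamus (adjusted p = 0.0211) come from few cortical counts. The WT cortical library had 0 and the KO ones 1 each, and no fit without the WT library was run. The pooled ratios of these comparisons, 0.649 (0.313 to 1.27) and 1.54 (0.808 to 3.13), did not exclude equality, and in DESeq2 neither was called (adjusted p = 0.0626 and 0.0776). The first was also lost without heterozygous ventral library 6 (adjusted p = 0.0577) and the second without KO hypothalamus library 7 (0.0820). *Cox6b2* was highest in the hypothalamus, with 66 pooled counts against 24 in the dorsal striatum, 33 in the ventral striatum and 6 in the motor cortex. The ratio of the hypothalamus to the motor cortex was 5.37 (2.34 to 15.1) and that to the dorsal striatum 1.88 (1.16 to 3.14), the latter called by edgeR (0.93, SE 0.36, adjusted p = 0.0118) and not by DESeq2 (adjusted p = 0.0831). The motor cortex gave ratios of 0.351 (0.117 to 0.881) to the dorsal and 0.291 (0.0995 to 0.702) to the ventral striatum, and both heterozygous cortical libraries held 0 counts. *Ndufa4l2*, at 26 to 52 counts per region, gave ratios between regions of 0.809 to 1.19, each with an interval that included 1.

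The 7 core subunits of complex I that are made from nuclear genes carry its flavin and its iron-sulfur clusters. Their summed level was 266 to 312 CPM in the dorsal striatum, 270 to 313 in the ventral striatum, 282 to 318 in the motor cortex and 267 to 319 in the hypothalamus. The regions overlapped fully. On the TMM scale *Ndufs1*, *Ndufs7* and *Ndufs8* were called in no comparison of regions, *Ndufs3* and *Ndufv1* in 3 each and *Ndufv2*, an iron-sulfur subunit next to *Ndufv1*, in 2. By size alone 6 of the 7 core genes were called higher and 1 lower in the hypothalamus than in the dorsal striatum. *Ndufv2* was at 97.1, 109 and 116 CPM in the hypothalamus, against 75.8, 92.7 and 112 in the dorsal striatum and 83.8, 88.2 and 94.9 in the motor cortex.

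The mitochondrially encoded partners of these genes behaved otherwise. Of the 13 such genes 10 passed the filter, and the summed level of all 13 had a lowest, median and highest value of 49730.5, 62670 and 94497 CPM in the dorsal striatum, 40404, 53241 and 62448 in the ventral striatum, 37005, 38781 and 44784 in the motor cortex and 28958, 31553 and 38182 in the hypothalamus. The dorsal striatum lay above the motor cortex and the hypothalamus in every library, and WT dorsal library 1 stood far above the rest of its region. Of the 10 genes, 8 were lower in the motor cortex than in the dorsal striatum (median -0.74) and 9 were lower in the hypothalamus (median -0.80, or 8 and -0.43 by size alone). Of all genes, 43.4% and 56.1% were called in these comparisons, in either direction. Against the ventral striatum, 8 were lower in the motor cortex (median -0.39) and 8 in the hypothalamus (median -0.58, or 7 and -0.36 by size alone), where 43.7% and 43.6% of all genes were called. *mt-Nd5*, the most abundant, changed by -0.75 (SE 0.10, adjusted p = 4.92e-13) between the dorsal striatum and the hypothalamus.

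**Figure D4:**
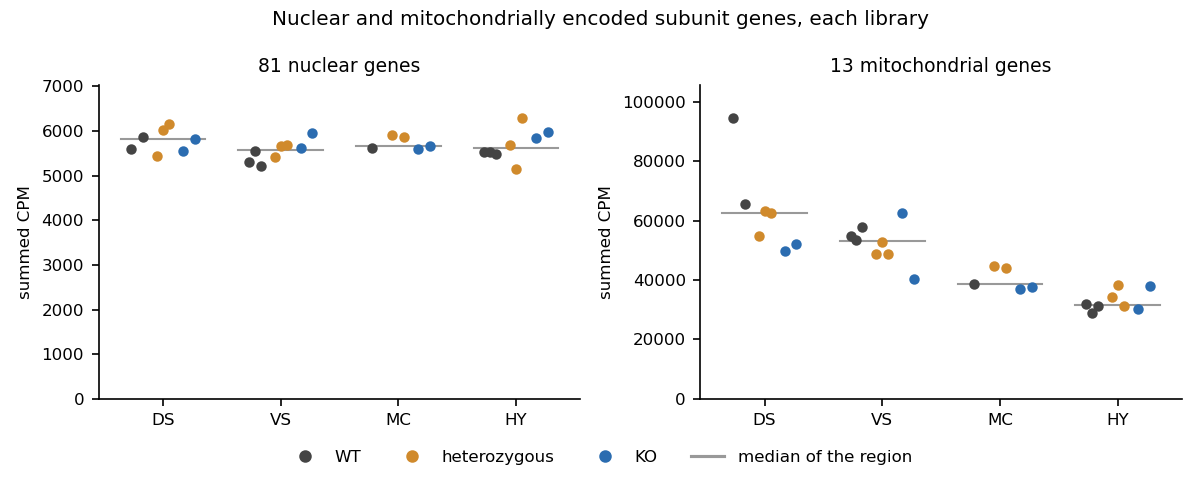
Summed TMM-scaled CPM (vertical axes, from 0) of the 81 nuclear subunit genes (left) and of the 13 mitochondrially encoded ones (right) in each library by region (DS dorsal striatum, VS ventral striatum, MC motor cortex, HY hypothalamus), colored by genotype, with the median of the region as a line. On this scale the nuclear sum overlaps between all regions, and the mitochondrial sum has its highest median in the dorsal striatum and its lowest in the hypothalamus.

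Counts on mitochondrial genes per count on the 81 nuclear genes, a ratio that no scaling touches, had medians of 10.2 in the dorsal striatum (8.96 to 16.9), 9.49 in the ventral striatum (6.78 to 11.1), 6.90 in the motor cortex (6.61 to 7.58) and 5.71 in the hypothalamus (4.98 to 7.41). The hypothalamus lay under both parts of the striatum, apart from KO ventral library 8. Fewer mitochondrial genes were called in the remaining comparisons. In the dorsal striatum 4 of 10 were higher than in the ventral striatum (median 0.28), against 29% of all genes called. It was 7 without WT dorsal 2 or KO ventral 7, 1 without WT dorsal 1 or KO ventral 8, and 1 by size alone (median 0.12). In the hypothalamus 5 of 10 were lower than in the motor cortex (median -0.21), near the 48.2% of all genes called there. It was 3 without KO hypothalamus 7 and 0 of 10 by edgeR's likelihood ratio test with size alone. The 8 lower in the motor cortex than in the ventral striatum became 5 without KO ventral 7. *mt-Co2*, *mt-Atp6*, *mt-Co3*, *mt-Nd3* and *mt-Nd4l* are nearly all repeated in nuclear copies and had 14 to 397 counts in all libraries together, and *mt-Atp8* had 7, against 131526 (*mt-Nd6*) or more for each of the others, so their levels are not comparable.

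Cell-type markers differed between the regions as well, and their part in the differences of subunit genes was not tested. Markers of oligodendrocytes were lower in the motor cortex than in each other region, 8 of 8 each time, at 1546 to 2609 CPM against 2971 to 5691 in the dorsal striatum, 3492 to 5167 in the ventral striatum and 3266 to 5733 in the hypothalamus. Pan-neuronal markers (*Snap25*) were higher in the motor cortex than in either part of the striatum, 6 of 6, at 6686 to 8187 CPM against 2718 to 3388 and 2321 to 2975, while the hypothalamus held 2954 to 4122. Astrocyte markers (*Aldoc*) were higher in the hypothalamus than in the dorsal striatum, 6 of 6 (932 to 1114 against 616 to 707 CPM), and lower in the dorsal than in the ventral striatum, 3 of 6 (736 to 829 CPM in the ventral striatum, 680 to 769 in the motor cortex). Microglial markers (*Csf1r*) were lower in the hypothalamus than in either part of the striatum, 6 of 6, at 90.5 to 115 CPM against 160 to 222 and 181 to 232, with 115 to 147 in the motor cortex.

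Ependymal markers (*Foxj1*) were at 10.5 to 19.9 CPM in the hypothalamus and 1.68 to 4.79 in the motor cortex and ventral striatum, with 19.8 in heterozygous dorsal library 4 against a median of 2.76 in its region. In the hypothalamus 6 of 6 were higher than in the dorsal striatum. Choroid plexus markers (*Enpp2*, 8 of 11 passing) were at 120 to 275 CPM in every library but KO dorsal library 8, which held 3880. *Enpp2* alone averaged 207 CPM over all libraries, so the sums outside that library need not show choroid plexus. Endothelial markers (*Flt1*) were higher in the dorsal than in the ventral striatum, 3 of 6 (134 to 164 against 109 to 138 CPM), as were mural markers (*Rgs5*), 3 of 8 (238 to 317 against 181 to 241 CPM), with 0 of 6 and 1 of 8 for size alone by the same edgeR test. The list for parvalbumin interneurons (*Pvalb*, *Tac1*, *Kcnc1* and *Gad1*) summed to 404 to 656 CPM in all libraries. *Gad1* alone averaged 271 CPM, and *Tac1* is also among the spiny neuron markers, so the list does not measure these interneurons alone. Of these 4 genes, 1 was higher in the dorsal than in the ventral striatum, a comparison that called 29% of all genes. The sum hid members that changed in opposite directions. Against either part of the striatum, the motor cortex had 2 of the 4 higher and 2 lower, and hypothalamic libraries gave the same split.

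Other genes of the pathway gave a background to the subunits, to be read beside the 43.4% of all genes called for the motor cortex against the dorsal striatum, 43.7% against the ventral striatum, 56.1% for the hypothalamus against the dorsal striatum and 48.2% against the motor cortex. Of 16 glycolytic genes (*Aldoa* the most abundant), 10 were higher in the motor cortex than in the dorsal striatum (median 0.30) and 11 than in the ventral striatum (median 0.34), with 0 lower in both by edgeR and the same direction under size alone. Their sum was 3128 to 3386 CPM in the motor cortex, 2677 to 2879 in the dorsal striatum, 2289 to 2687 in the ventral striatum and 2641 to 3022 in the hypothalamus. Of 17 citrate cycle genes, 8 were higher and 2 lower in the motor cortex than in the dorsal striatum (median 0.19), or 5 higher without KO dorsal library 7 and 12 higher and 0 lower under size alone, and 2 were higher and 1 lower than in the ventral striatum (median 0.09). Of 43 assembly factors that passed (of 46, *Coa5* the most abundant), 8 were higher and 10 lower in the hypothalamus than in the dorsal striatum, which became 21 and 2 under size alone. With a library left out, 5 to 8 were higher and 9 to 13 lower. Of 7 carriers and cytochrome c (*Slc25a4*), 3 were higher and 2 lower in that comparison (4 and 0 under size alone), and of 12 regulators of mitochondrial genes (*Ppargc1a*), 3 were higher and 5 lower, or 6 and 1 under size alone. The regulators gave 2 to 3 higher and 3 to 6 lower with a library left out. Of 75 mitochondrial ribosomal protein genes that passed (*Mrpl10*), 20 were higher and 7 lower in the hypothalamus than in the dorsal striatum (median 0.16), or 54 and 0 under size alone (median 0.52). Of 72 cytosolic ribosomal protein genes (*Rpl4*), which like the subunits have short abundant messages, 39 were lower and 1 higher in the motor cortex than in the ventral striatum (median -0.48), and 32 were higher and 2 lower in the hypothalamus than in the motor cortex (median 0.39), in the same directions under size alone. The subunit medians in those comparisons were 0.02 and 0.05.

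The promoters of the subunit genes were read for motifs that are often found near genes of the respiratory chain. Of the 81 genes, 65 had a promoter in RefSeq's table (GRCm38.p6, 250 bases before the start and 50 after it), 70 promoters in all, of 32851. CGCATGCG, the core bound by NRF1, was in 8 of the 65 genes (11.4% of their promoters, 1.87% of all promoters). CCGGAAG, bound by ETS factors such as GABP, was in 16 genes (22.9%, against 8.86% of all). AAGATGGCG, the core of YY1, was in 7 (10%, against 1.40%) and TCAAGGTCA, bound by the ERR family, in 2 (2.86%, against 0.423%), each counted on both strands. The longer forms of the NRF1 and YY1 motifs were each in 4 genes (5.71%, against 0.971% and 0.633% of all promoters). Among those without an entry were *Atp5a1*, *Atp5mpl*, *Cox4i1*, *Cox4i2*, *Cox6a2*, *Cox6c*, *Cyc1*, *Ndufa2*, *Ndufa4l2*, *Ndufb9*, *Ndufs1*, *Sdhc*, *Uqcrb*, *Uqcrc2* and *Uqcrq*. The median share of G or C was 57.5% in the promoters of the subunit genes and 52.7% in all. A match is a description, not a site or a cause. Shown are *Cox6a1* (chr5:115348909-115349208), *Uqcr11* (chr10:80406772-80407071) and *Cox8a* (chr19:7217567-7217866), among the genes that differed most between regions, and *Atp5j* (chr16:84834927-84835226, 1 of its 2 promoters), which holds 3 of the 4 motifs. All 4 lie on the minus strand, and capitals mark the matches.
Cox6a1: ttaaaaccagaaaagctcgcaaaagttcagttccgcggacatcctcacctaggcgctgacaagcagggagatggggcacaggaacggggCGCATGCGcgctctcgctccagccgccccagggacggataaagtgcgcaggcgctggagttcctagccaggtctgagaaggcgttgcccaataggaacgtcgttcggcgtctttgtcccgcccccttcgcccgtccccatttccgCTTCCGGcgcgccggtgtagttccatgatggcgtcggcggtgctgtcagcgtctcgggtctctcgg
Uqcr11: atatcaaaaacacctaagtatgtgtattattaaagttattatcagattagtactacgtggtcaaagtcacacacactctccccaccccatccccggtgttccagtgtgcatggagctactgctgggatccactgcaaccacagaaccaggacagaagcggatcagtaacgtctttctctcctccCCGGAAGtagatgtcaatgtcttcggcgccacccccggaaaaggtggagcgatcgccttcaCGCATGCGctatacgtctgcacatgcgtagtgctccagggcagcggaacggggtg
Cox8a: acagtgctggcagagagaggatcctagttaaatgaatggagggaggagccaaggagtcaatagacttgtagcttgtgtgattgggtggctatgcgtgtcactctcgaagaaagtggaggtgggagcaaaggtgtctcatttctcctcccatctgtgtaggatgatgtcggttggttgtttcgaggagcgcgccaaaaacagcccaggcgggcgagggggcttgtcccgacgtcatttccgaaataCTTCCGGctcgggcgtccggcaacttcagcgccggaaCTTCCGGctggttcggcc
Atp5j: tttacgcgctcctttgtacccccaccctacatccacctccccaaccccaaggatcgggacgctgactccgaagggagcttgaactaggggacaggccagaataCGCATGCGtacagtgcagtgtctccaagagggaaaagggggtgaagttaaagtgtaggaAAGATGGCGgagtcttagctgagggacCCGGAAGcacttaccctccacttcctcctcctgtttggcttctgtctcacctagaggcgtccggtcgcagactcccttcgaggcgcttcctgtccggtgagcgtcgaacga
*Cox6a1* and *Uqcr11* each hold the NRF1 core and an ETS motif. *Cox8a* holds 2 ETS motifs.

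Few genes of any kind were called between genotypes, so a count of 0 does not set the subunit genes apart. Each share of all genes given for these comparisons is the share called at an adjusted p under 0.05. Counts at an unadjusted p under 0.05, and their directions, have no such share beside them and are not read as results about the subunit genes. In the dorsal striatum, 0 of 81 subunit genes were called for KO against WT by edgeR's likelihood ratio test, its quasi-likelihood test or DESeq2, against 0.387% of all genes, and 3 had an unadjusted p under 0.05. The median change was -0.05, and 0.00 over all genes. *Ndufa7*, an accessory subunit of complex I, was at 25.8 and 21.8 CPM in WT, 18.3, 25.5 and 22.3 in heterozygous and 14.3 and 17.1 in KO libraries. Both KO libraries were the lowest, with a change of -0.60 (SE 0.24, adjusted p = 0.425). *Ndufs5*, another accessory subunit, was at 4.80 and 4.31 CPM in WT, 3.26, 2.21 and 2.45 in heterozygous and 2.53 and 2.36 in KO libraries (-0.87, SE 0.42, adjusted p = 0.560). *Atp5j*, coupling factor 6 in the stalk of ATP synthase, was at 28.2 and 28.3 CPM in WT, 36.1, 32.6 and 34.6 in heterozygous and 38.0 and 33.9 in KO libraries (0.35, SE 0.16, adjusted p = 0.563). Both WT libraries were the highest for *Ndufs5* and the lowest for *Atp5j*. Scaled by size alone, the median of all genes moved to 0.28 and that of the subunits to 0.23, and *Atp5j* was called (0.63, adjusted p = 0.0194), 1 of 81, as were 3.33% of all genes.

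In the same comparison 2 of 10 mitochondrially encoded genes were called lower in KO, *mt-Co1* (-0.59, SE 0.15, adjusted p = 0.0373) and *mt-Nd1* (-0.66, SE 0.18, adjusted p = 0.04996), with a median of -0.63. Their summed level was 94497 and 65622 CPM in WT, 54942, 63128 and 62670 in heterozygous and 49730.5 and 52252 in KO libraries. The KO libraries were the lowest of the region and WT library 1 the highest. The number called was 0 of 10 without WT 1, KO 7 or KO 8 and 7 without WT 2, and size alone gave a median of -0.33 with no call. Oligodendrocyte markers moved as well: 3 of 8 were called higher in KO (0 without WT 1, WT 2 or KO 8, and 5 without KO 7), at 3461 and 2971 CPM in WT, 4493, 4268 and 4330 in heterozygous and 4454 and 5691 in KO libraries. Of 8 choroid plexus markers 7 were higher in KO, 0 of them without KO 8 and 1 without WT 1 or WT 2. Their part in the mitochondrial result was not tested.

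In the ventral striatum edgeR called 0 of 81 genes for KO against WT (0 by its quasi-likelihood test and by DESeq2, 4 at an unadjusted p under 0.05), against 0.0801% of all genes. All 4 were higher in KO. *Cox5b*, a structural subunit of complex IV, was at 38.9, 42.0 and 39.3 CPM in WT, 46.3, 51.1 and 55.8 in heterozygous and 56.3 and 53.9 in KO libraries. WT lay under all others, with a change of 0.46 (SE 0.15, adjusted p = 0.455). *Atp5g3* was at 207, 240 and 237 CPM in WT, 253, 253 and 261 in heterozygous and 268 and 306 in KO libraries (0.33, SE 0.12, adjusted p = 0.611). *Sdha* was at 193, 195 and 196 CPM in WT, 214, 227 and 231 in heterozygous and 218 and 253 in KO libraries (0.28, SE 0.11, adjusted p = 0.709). In both genes the WT libraries were again the lowest.

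In the motor cortex there was a single WT library, so the spread behind the SEs and p-values comes from the other groups. There 0 genes were called for KO against WT (0 by each of the 3 tests, 1 at an unadjusted p under 0.05), against 0.0334% of all genes. *Uqcrb* was at 25.0 CPM in WT, 19.8 and 21.1 in heterozygous and 13.7 and 20.002 in KO libraries (-0.59, SE 0.25, adjusted p = 1). *Ndufa8*, an accessory subunit of complex I, was at 28.4 CPM in WT and 37.9 and 34.6 in KO libraries (0.36, SE 0.20), and *Uqcrc2*, a core protein of complex III, was at 81.5 CPM in WT and 67.2 and 69.5 in KO libraries (-0.25, SE 0.15). The WT library was outside the KO range in each of the 3, but it had no replicate.

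In the hypothalamus edgeR called 0 genes for KO against WT (0 by its quasi-likelihood test and by DESeq2), against 0.167% of all genes called. At an unadjusted p under 0.05 there were 6, all higher, a count without a background. *Cox5b* was at 41.4, 38.7 and 41.0 CPM in WT, 44.1, 35.7 and 51.1 in heterozygous and 51.6 and 60.4 in KO libraries (0.47, SE 0.14, adjusted p = 0.233). Both KO libraries were above all others. *Cox7a2l* was at 74.4, 76.3 and 73.3 CPM in WT and 96.6 and 84.9 in KO libraries (0.28, SE 0.11, adjusted p = 0.604), with heterozygous libraries at 80.4, 90.5 and 79.5. *Cox6b2* had 18 counts in the WT and 22 in the KO libraries, a ratio of 2.18 (1.118 to 4.32, adjusted p = 0.668). A cortical marker, 1 of 8, was also called higher in KO there, where library 8 held the 773 CPM given above.

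Between heterozygous and WT mice few genes of any kind were called either. Called by edgeR were 0 of 81 genes in the dorsal striatum (2 at an unadjusted p under 0.05, against 0.0868% of all genes called), 0 in the ventral striatum (2, against 0.0534%), 0 in the motor cortex (2, against 0.0134%) and 0 in the hypothalamus (0, against 0.0935%), and the quasi-likelihood test and DESeq2 also called 0 in each. In the dorsal striatum the smallest p-values were those of *Ndufs5* (-0.75, SE 0.36), *Atp5g3* (0.23, SE 0.12) and *Atp5j* (0.29, SE 0.15), each with an adjusted p of 0.589 or more. Size alone moved the median of all genes there to 0.20 and that of the subunits to 0.17. In the ventral striatum they were those of *Cox5b* (0.35, SE 0.13), *Sdha* (0.20, SE 0.10) and *Ndufc1* (-0.29, SE 0.15). In the hypothalamus *Ndufa12* (24.4, 24.1 and 23.3 CPM in WT, 26.7, 30.2 and 29.2 in heterozygous libraries), *Atp5g3* (244, 260 and 255 against 279, 286 and 308) and *Atp5o* (116, 110 and 108 against 127, 114 and 136) came first, with adjusted p-values of 0.878, 0.893 and 0.958. In the motor cortex, *Cox7a2* was at 88.0 CPM in WT and 110 and 108 in heterozygous libraries (0.31, SE 0.17). *Cox4i2* had 0 counts in WT and 6 and 5 in heterozygous libraries. The ratio was 1.90 if 3 counts are taken for the WT floor, and its interval began at 1.30. *Cox6b2* had 2 counts in WT and 0 in both heterozygous libraries, too few for a ratio.

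Averaged over the dorsal striatum, the ventral striatum and the hypothalamus, KO differed from WT in 1 of 81 genes, *Cox5b*, against 0.527% of all genes. In the dorsal striatum *Cox5b* was at 45.6 and 55.1 CPM in WT, 47.1, 57.6 and 57.2 in heterozygous and 52.7 and 53.3 in KO libraries, and in the motor cortex, which was not part of the average, at 46.1 CPM in WT, 44.9 and 53.8 in heterozygous and 49.1 and 46.5 in KO libraries. WT and KO thus separated in the ventral striatum and the hypothalamus and not in the dorsal striatum. The averaged change was 0.33 (SE 0.09, adjusted p = 0.0350), or 1.26 times. The quasi-likelihood test (adjusted p = 0.126) and DESeq2 (0.135) did not call it. It was also not called without KO dorsal 7 (adjusted p = 0.0683) or 8 (0.0837), KO ventral 8 (0.0835), KO hypothalamus 8 (0.225), WT dorsal 1 (0.196), WT ventral 1 (0.0782), or WT hypothalamus 1 (0.0687), 2 (0.0712) or 3 (0.0719). In total 9 of 14 libraries ended the call, while the change stayed between 0.29 and 0.41 in all 19 alternatives (adjusted p = 0.00334 to 0.225). Another gene, *Gm11273*, repeats 43.8% of the coding stretches of *Cox5b*. The 9 genes with an unadjusted p under 0.05 included 8 that were higher in KO. The share of all genes under that unadjusted threshold is not given, so this count, like those of the other genotype comparisons, has no background.

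**Figure D5:**
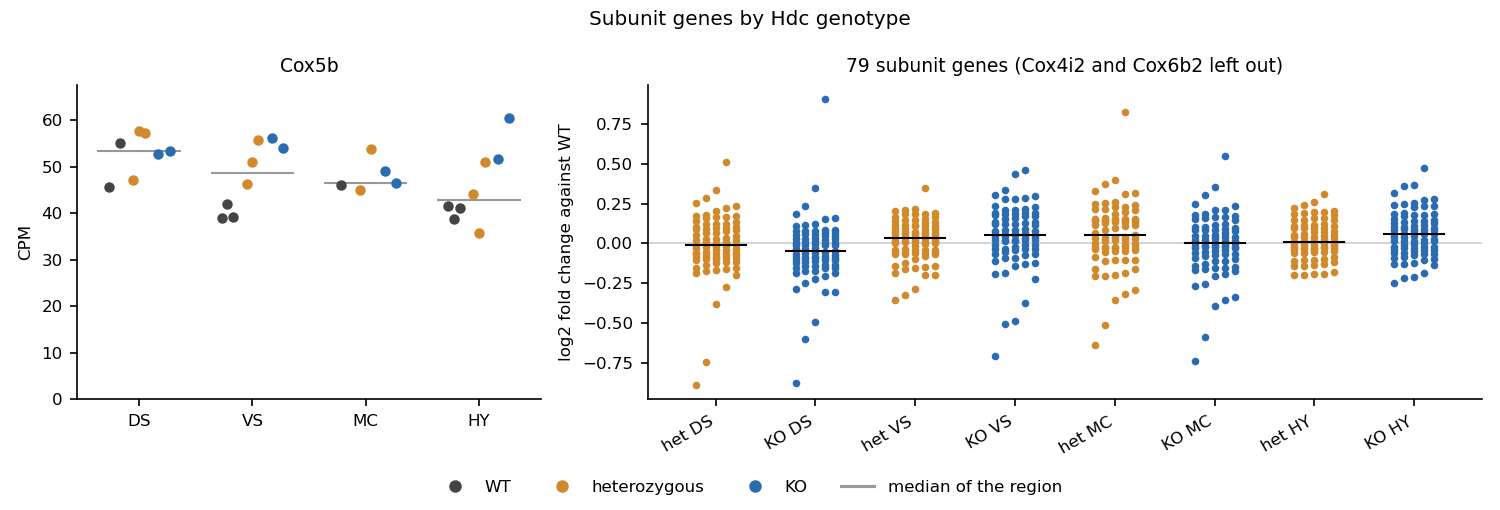
Left, TMM-scaled CPM of *Cox5b* (vertical axis, from 0) in each library by region (DS dorsal striatum, VS ventral striatum, MC motor cortex, HY hypothalamus), colored by genotype, with the median of the region as a line. Right, log2 fold changes against WT of the subunit genes, apart from *Cox4i2* and *Cox6b2*, in heterozygous (het) and KO libraries of each region, 1 point per gene with the median as a line. The medians lie between -0.05 and 0.06.

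The KO change in the dorsal striatum was also compared with its average in the ventral striatum and the hypothalamus. No subunit gene differed by edgeR (0 of 81, 0 by its quasi-likelihood test and by DESeq2), against 0.0467% of all genes called. At an unadjusted p under 0.05 there were 5, all lower, again without a background. The smallest p-values belonged to *Ndufs4*, an accessory subunit needed for a stable complex I (-0.39, SE 0.18, adjusted p = 0.822), *Ndufa7* (-0.61, SE 0.29, adjusted p = 0.853) and *Atp5o*, which links the stator to the head of ATP synthase (-0.33, SE 0.15, adjusted p = 0.853). *Ndufs4* was at 56.1 and 51.2 CPM in WT and 46.7 and 44.6 in KO libraries of the dorsal striatum, and at 38.0, 41.8 and 33.3 CPM in WT and 43.3 and 45.6 in KO libraries of the hypothalamus. WT was above KO in the first region and under it in the second. In the ventral striatum, the other part of the average, WT and KO overlapped. Unscaled *Ndufs4* counts there were 155, 154 and 145 in WT and 207 and 150 in KO libraries. The other pathway lists, the mitochondrial ribosomal proteins and the glycolytic genes among them, had 0 genes called by edgeR in the KO and heterozygous comparisons within regions, apart from the mitochondrially encoded genes of the dorsal striatum, and 1 assembly factor was lower in the averaged comparison.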

How the data were processed

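The authors trimmed the reads with Trimmomatic 0.32, aligned them with STAR 2.3.1z8 and counted them on exons of Ensembl release 75 with HTSeq 0.6.1p1, and they deposited raw counts per gene. From these counts, genes above 1 CPM in at least 2 of 28 libraries were fitted in R 4.3.3 with edgeR 4.0.16 (TMM scaling, 12 groups of region and genotype, likelihood ratio test, adjustment over all genes tested). The alternatives were edgeR's quasi-likelihood test, DESeq2 1.42.0, scaling by size alone or by relative log expression, no filter, an additive model, a block for the replicate number, fits to the regions compared alone, and each library left out. Symbols came from GENCODE M21, which named 28842 of 29878 genes. The genes and lists were chosen with earlier results of these data known.

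Genes were named in the text by rule: in each comparison of regions the 5 with the smallest p-values among those called in each direction, in each comparison of genotypes those called or else the 3 with the smallest p-values, and throughout the tissue isoforms, the core genes of complex I, the highest and lowest per length of each complex, and *Hdc*. Of the reads tallied, 44.8% to 54.2% lay on genes. No 2 libraries of a group were copies of each other (21 pairs, chi-square per degree of freedom 1.78 to 13.3). In a self-test on KO against WT in the dorsal striatum, changes were planted in 200 of 14979 genes. The likelihood ratio test recovered 97 of them beside 17 false calls, and the quasi-likelihood test 93 beside 9. In both tests the false calls were a larger share of the calls than the adjusted p threshold allows for. This share was larger for the likelihood ratio test, so its calls may hold more false ones than the threshold implies. Whether libraries of the same replicate number came from the same animal is not given: 34 such pairs had a mean correlation of residuals of 0.007.

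Groups held 1 to 3 libraries, so small changes between genotypes could be missed. The counts hold no molecular identifiers, so copies made by amplification cannot be removed. The strand setting of the counting is not stated.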

Additional observations from a re-analysis of the deposited data

Results flagged for a closer look

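In each region, the 5 to 8 libraries were searched for single values far from the rest, over genotypes together. Of 432 groups of values searched, 31 held such a value, 21 of 324 for subunit genes and 10 of 108 for lists, where chance alone gives about 1 in 20.

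Heterozygous dorsal striatum library 4 was high in *Ndufa3* (82.6 CPM), *Ndufv3* (225) and the ependymal markers (19.8) and low in *Ndufb8* (42.2), *Sdhc* (31.6) and *Atp5e* (50.8). KO motor cortex library 7 was low in *Ndufa4* (148 CPM), *Ndufb6* (17.0), *Cox7b* (75.5) and *Atp5f1* (23.5). WT motor cortex library 2 was low in *Ndufv3* (167 CPM) and *Atp5h* (33.6), heterozygous motor cortex library 6 was high in *Ndufb9* (90.3) and KO motor cortex library 8 was high in *Atp5g1* (26.8). KO dorsal striatum library 8 was low in *Ndufc1* (25.2 CPM) and high in the choroid plexus markers (3880). WT dorsal striatum library 1 was low in *Atp5mpl* (57.9 CPM) and high in the mitochondrially encoded genes (94497). WT ventral striatum library 3 was low in *Ndufs3* (21.8 CPM) and *Cox8a* (80.3). WT ventral striatum library 1 was low in the list for parvalbumin interneurons (407), and KO ventral striatum library 8 was high in the sum of complex III (479). Heterozygous hypothalamus library 5 was low in *Cyc1* (64.8 CPM), *Cox4i1* (106), the assembly factors (544) and the sum of complex II (341). Heterozygous hypothalamus library 6 was high in *Uqcrc2* (88.3 CPM), *Cox6a2* (8.77), the oligodendrocyte markers (5733) and the choroid plexus markers (275). KO hypothalamus library 8 was high in the markers of cortical excitatory neurons (773 CPM).

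*Ndufa12* was 0.27 higher in KO than in WT in the hypothalamus and -0.14 in the dorsal striatum, a gap of 0.41, and *Ndufs4* was at 0.24 and -0.23, a gap of 0.46. The difference between these 2 regions was not tested.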

How the results depend on the processing

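Scaling by library size alone moved the number of subunit genes called from 7 to 22 for the dorsal against the ventral striatum, from 27 to 68 for the hypothalamus against the dorsal striatum, from 15 to 46 against the ventral striatum, from 25 to 47 against the motor cortex, and from 0 to 1 for KO against WT in the dorsal striatum (*Atp5j*). It turned the sign of 4 named changes, none of which was then called and all of which lay under the shift of all genes (0.41 and 0.28): *Cox6c* (0.0399) and *Cox8a* (0.10) for the hypothalamus against the dorsal striatum and *Cox6c* (0.0111) and *Ndufa4* (0.0146) for the hypothalamus against the motor cortex. The single call in the averaged KO comparison went to 0 by edgeR's quasi-likelihood test, without the filter and by DESeq2.

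With each library left out in turn, the numbers called were 7 to 12 for the dorsal against the ventral striatum, 14 to 21 for the motor cortex against the dorsal and 14 to 18 against the ventral striatum, 23 to 31 for the hypothalamus against the dorsal striatum, 10 to 21 against the ventral striatum and 19 to 24 against the motor cortex, 0 to 1 for the averaged KO comparison, and 0 to 0 for every other comparison of genotypes. The motor cortex has no WT library once its only one is left out, so that setting was not run for its comparisons.

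With the unexplained replicate number as a block, the numbers called were 7 for the dorsal against the ventral striatum, 17 and 19 for the motor cortex against the dorsal and the ventral striatum, and 26, 16 and 24 for the hypothalamus against the dorsal striatum, the ventral striatum and the motor cortex.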
